A study of Homo sapiens with 4 samples.

Results

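The genes of the β-catenin destruction complex were followed through RNA-seq and m6A-seq of A549 cells, a human lung adenocarcinoma line. The members were chosen by symbol, among genes in the expression table and in both peak lists: AXIN1, AXIN2, APC, AMER1, GSK3A, GSK3B, CSNK1A1, CTNNB1, BTRC and FRAT2. They are 10 of the 28283 genes in the expression table. The cells carried either the pLKO.1 control vector (shNC) or 1 shRNA against YTHDF2 (shY2-2), the cytoplasmic m6A reader, expressed stably from a lentivirus. From each line the poly(A) RNA was fragmented, and 1 library was made of the fragments as they were (input) and another after precipitation with antibody to m6A (IP), 4 libraries in all. With 1 library per condition and kind, no difference between shNC and shY2-2 has a replicate check, and all ratios describe these libraries. The labels do not say whether a line was 1 clone or a pool of infected cells.

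The destruction complex keeps β-catenin low when no Wnt ligand is bound. AXIN1 and its paralog AXIN2 are scaffolds that hold APC, β-catenin (CTNNB1) and the kinases CK1α (CSNK1A1) and GSK3 (GSK3A and GSK3B) together. CK1α primes β-catenin, GSK3 phosphorylates it further, and β-TrCP (BTRC), the substrate adaptor of an SCF ubiquitin ligase, binds the phosphorylated protein so that the proteasome degrades it. AMER1 recruits AXIN and APC to the plasma membrane, and FRAT2 binds GSK3 and competes with AXIN for it. AXIN2 is also a widely used transcription target of β-catenin. m6A is a methyl mark on adenosines of mRNA, mostly near stop codons and in 3'-UTRs, and YTHDF2 is known for directing mRNAs that carry it to decay. The study named AXIN1 as a target of YTHDF2. It reported higher AXIN1 m6A, mRNA and protein and a longer mRNA half-life after knockdown, and binding of YTHDF2 to AXIN1 mRNA. The question here is where AXIN1 stands beside its partners.

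The labels were checked on the RNA first. YTHDF2 stood at 3.56 FPKM in shNC and at 1.02 FPKM in shY2-2, a ratio of 0.286. A part of its RNA thus remained in the knockdown. With 1 added to both FPKM values, the log2 ratio was -1.18. FPKM is the number of fragments per length of exon, scaled to all mapped fragments of the library. All 5 epithelial markers (KRT8, KRT18, KRT19, CDH1 and EPCAM) were present in both libraries, and all 5 were lower in shY2-2, with a summed FPKM of 948 in shNC and 622 in shY2-2. The 3 hematopoietic and the 3 endothelial markers each summed to at most 0.123 FPKM in either library. The 3 fibroblast markers summed to 1.18 FPKM in shNC and 1.70 in shY2-2, mostly from COL1A1, at 0.834 and 1.64 FPKM. CD3E was listed at 0 in shY2-2. The part of the epithelial markers' difference in the results that follow was not tested, and in bulk RNA fewer cells of a type and less RNA per cell cannot be told apart. The FPKM values carry no read counts, so their absolute depth is unknown. Among 978 genes with very low FPKM (above 0 and under 0.03) in both libraries, the ratio seen most often was 0.802, shared by 129 genes within 2%, the ratio that single fragments give where the shY2-2 input library is 1.25 times as deep.

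One window of spliced reference sequence (GRCh38) is shown for each member, inside the part of a peak that both lists held, so that the letters under the shared m6A signal can be seen. For each member the pair of peaks with the lowest shNC false discovery rate (FDR) was used, except GSK3A, whose lowest pair, at the 5' end, held none of the motifs in the 150 nt it shared, so that its 3' pair stands in. Capitals mark GGACT where it occurred, otherwise GGAC, otherwise GACT, otherwise AACT. The study gives the consensus around methylated adenosines as RRACH, where R is A or G and H is A, C or T. GACT and AACT match it without its first letter. In the AXIN2 and GSK3A windows the base before them is T, so neither fits RRACH in full.
AXIN1: gtttccccttGGACctcggagcaa
AXIN2: gctgggtactGACTgagataagaa
APC: tcacctagtgGGACTgttgctgcca
AMER1: agaaattaggAACTgcagtacatc
GSK3A: ctacagctgtAACTcccctcctgt
GSK3B: ggcaaagcgcGGACacttcctgag
CSNK1A1: attatccttaGGACTctgcattaac
CTNNB1: tgttatcagaGGACTaaataccatt
BTRC: tcccataattGGACTagataccttg
FRAT2: tccaattaagGGACTggagagaggt
The windows of AXIN1 (chr16:346983-347006, - strand, exon 2 of 11), APC (chr5:112843908-112843932, + strand, exon 16 of 16) and CTNNB1 (chr3:41235804-41235828, + strand, exon 11 of 15) lie in coding sequence. That of GSK3B (chr3:120094287-120094310, - strand, exon 1 of 11) lies in the 5'-UTR. The windows of AXIN2 (chr17:65529768-65529791, - strand, exon 11 of 11), AMER1 (chrX:64185358-64185381, - strand, exon 2 of 2) and GSK3A (chr19:42230328-42230351, - strand, exon 11 of 11) lie in 3'-UTRs. So do those of CSNK1A1 (chr5:149496184-149496208, - strand, exon 10 of 10), BTRC (chr10:101556400-101556424, + strand, exon 15 of 15) and FRAT2 (chr10:97333268-97333292, - strand, its single exon). AXIN2, AMER1 and GSK3A had no GGAC in the shared part that these windows come from. A match says only that the letters are there, and m6A-seq does not place the methylated base.

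At the RNA level the complex differed little between the 2 input libraries, and AXIN1 and FRAT2 were its members with the highest ratios. Ratios are log2 of FPKM + 1 in shY2-2 over FPKM + 1 in shNC, and the 12268 genes that reached an FPKM of 1 in either input are called tested genes, although 1 library per condition allows no statistical test. On this scale ratios of weakly expressed genes come out too small. Of the 10 members, 9 passed this filter, and APC, the member left out, was under 1 in both libraries. No member passed a log2 ratio of 1 in either direction, against 0.986% of tested genes above 1 and 2.14% below -1. Ratios above 0.3 (a fold of 1.23 on this scale) were seen for AXIN1 and FRAT2, 2 of 9 members, against 20.2% of tested genes. Only GSK3B was below -0.3, against 22.6% of tested genes. FPKM was higher in shY2-2 for 5 members and lower for 4, against 50.3% higher among tested genes. The median log2 ratio of the 9 members was 0.05 and that of all tested genes 0.00. These shares lie near the background, so they set the members apart in neither direction.

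**Figure D1:**
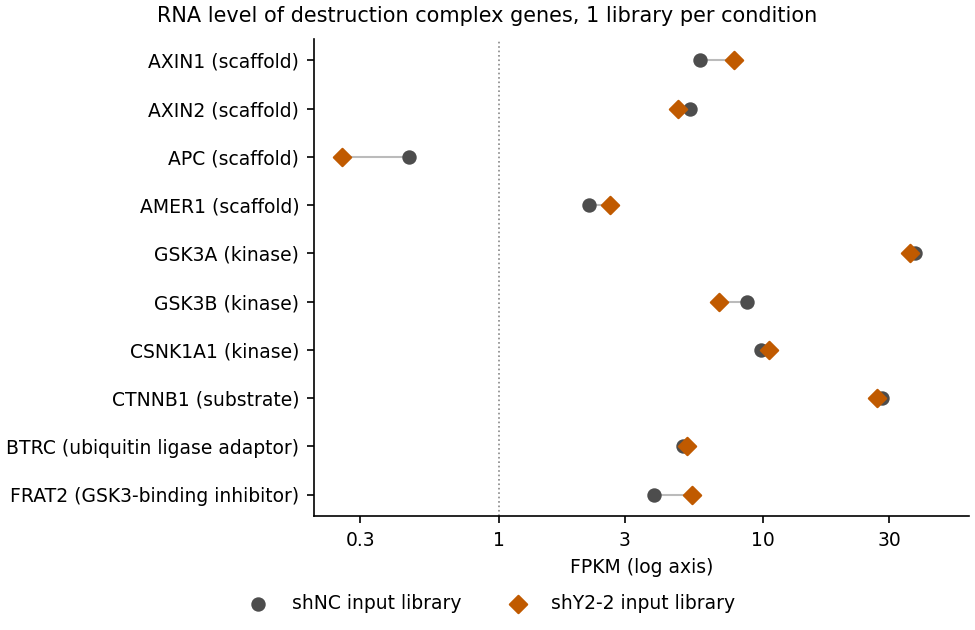
FPKM (log axis) of the 10 members in the shNC input library (circles) and the shY2-2 input library (diamonds), 1 library each, so no error bars can be drawn; the dotted line is an FPKM of 1. GSK3A and CTNNB1 stand highest in both libraries, and APC lies below 1 in both.

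Among the scaffolds, AXIN1 was higher in the shY2-2 library and AXIN2 lower. AXIN1 (ENSG00000103126, chr16:287440-352673, - strand) had an FPKM of 5.78 in shNC and 7.77 in shY2-2, a ratio of 1.34 and a log2 ratio of 0.37, and 85.1% of tested genes had a lower log2 ratio. AXIN2 (ENSG00000168646, chr17:65528563-65561647, - strand) had 5.28 FPKM in shNC and 4.76 in shY2-2, a log2 ratio of -0.12. The paralogs thus lay at nearly one level in shNC and apart in shY2-2, with no replicate to say whether that gap is larger than the spread between libraries. AMER1 (ENSG00000184675, chrX:64185117-64205744, - strand) had 2.20 FPKM in shNC and 2.63 in shY2-2, a log2 ratio of 0.18. APC (ENSG00000134982, chr5:112707498-112846239, + strand) had 0.459 FPKM in shNC and 0.256 in shY2-2. Its ratio without a pseudocount was 0.557, and its log2 ratio moved from -0.22 to -0.65 when 0.1 was added in place of 1, so its size rests on that choice. Of the AXIN2 reference transcript, 30.9% is shared on the same strand with a readthrough gene, AC004805.1, which was listed at 0 in shNC and at 0.00571 FPKM in shY2-2.

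The kinases GSK3A and CSNK1A1 had nearly equal levels in both libraries, while GSK3B was lower in shY2-2. GSK3A (ENSG00000105723, chr19:42230186-42242625, - strand) had 37.7 FPKM in shNC and 36.0 in shY2-2, a log2 ratio of -0.06. Its paralog GSK3B (ENSG00000082701, chr3:119821323-120094417, - strand) had 8.73 FPKM in shNC and 6.79 in shY2-2, a log2 ratio of -0.32, with a lower log2 ratio in 21.1% of tested genes. Per length, GSK3A RNA was thus the more abundant of the GSK3 paralogs in either library. CSNK1A1 (ENSG00000113712, chr5:149492197-149551552, - strand) had 9.85 FPKM in shNC and 10.5 in shY2-2, a log2 ratio of 0.09. Its value is uncertain, since 47.5% of its reference transcript is also exon of the lncRNA AC021078.1 on the same strand, at 3.74 FPKM in shNC and 3.15 in shY2-2. GSK3A shares 21.8% of its transcript with AC006486.1, which was at 0.375 FPKM in shNC and 0.397 in shY2-2.

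The substrate and the ligase adaptor were also close in both libraries. CTNNB1 (ENSG00000168036, chr3:41194837-41260096, + strand) had 28.3 FPKM in shNC and 26.9 in shY2-2, a log2 ratio of -0.07. The data are on RNA, and β-catenin protein, the quantity that the complex controls, was not measured in them. BTRC (ENSG00000166167, chr10:101354033-101557321, + strand) had 4.98 FPKM in shNC and 5.17 in shY2-2, a log2 ratio of 0.05. FRAT2 (ENSG00000181274, chr10:97332497-97334709, - strand), which counters AXIN binding to GSK3, had 3.86 FPKM in shNC and 5.41 in shY2-2, a ratio of 1.40 and a log2 ratio of 0.40. That was the highest log2 ratio of the 9 tested members, and 86.9% of tested genes had a lower one. On the opposite strand, a lncRNA overlaps 7.43% of the FRAT2 transcript, and whether strand was used in counting is not given in the sources used here.

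In order of level, GSK3A stood highest, CTNNB1 next and CSNK1A1 after it in both libraries, with AMER1 at rank 9 and APC at rank 10. AXIN1 was at rank 5 in shNC and rank 4 in shY2-2, and exchanged places with GSK3B. FRAT2 was at rank 8 in shNC and rank 6 in shY2-2, and AXIN2 at rank 6 in shNC and rank 8 in shY2-2. BTRC kept rank 7. These 5 genes lay between 3.86 and 8.73 FPKM in shNC, and no spread between replicates is at hand to separate neighbours in the order.

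**Figure D2:**
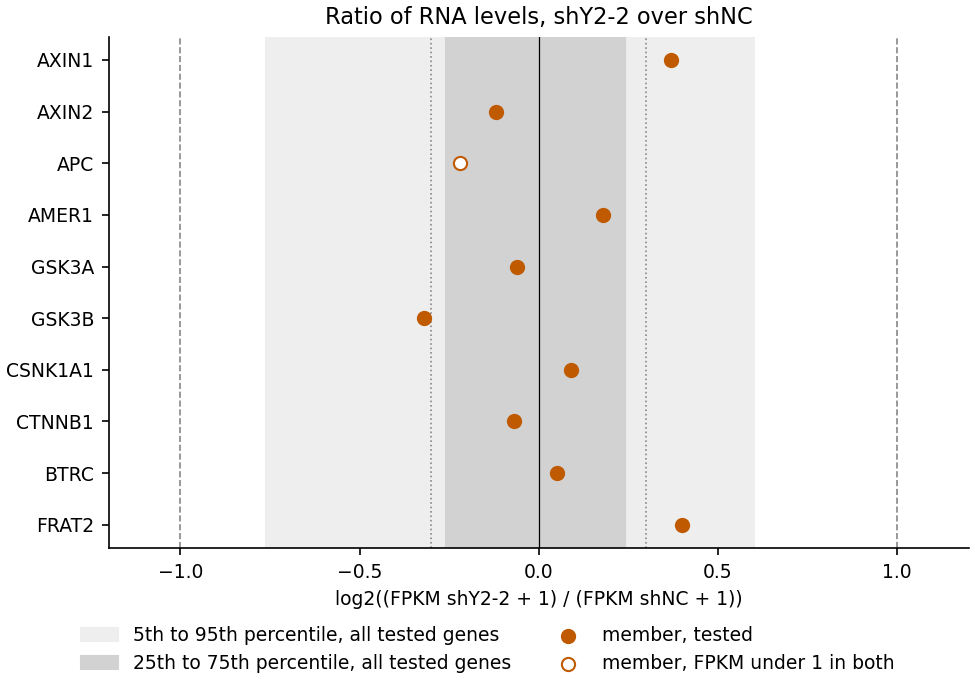
log2((FPKM shY2-2 + 1)/(FPKM shNC + 1)) of each member, from 1 library per condition, over bands that hold the middle ranges of the 12268 tested genes (inner band between the quartiles, -0.26 to 0.24; outer band between the 5th and 95th percentiles, -0.76 to 0.60). AXIN1, FRAT2 and GSK3B lie outside the inner band and all members lie inside the outer band; the open point is APC, under an FPKM of 1 in both libraries.

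Every member carried deposited m6A peaks in both conditions, but AMER1 had none with an FDR of at most 0.05 in either list and APC none in shY2-2. The authors called peaks as enrichment of IP over input fragments, separately for shNC and shY2-2, and the fold enrichment and FDR given here are their values for 1 IP against 1 input library. The shNC list held 32 peaks in the 10 members and the shY2-2 list 34. That all 10 were in both lists follows from how they were chosen, and 72.7% of tested genes had a peak in both. Each of the 10 had at least 1 peak that overlapped a peak of the other list. The share of all genes with such an overlap is not given here, so this count does not set the members apart. Of the 32 shNC peaks, 23 (71.9%) met a peak of the other list by at least 1 bp, against 55.9% of all shNC peaks. Of the 34 shY2-2 peaks, 22 (64.7%) met one, against 65.4% of all shY2-2 peaks. The shares of all peaks include genes with peaks in 1 list only, which the choice of members left out. These comparisons are thus partly set by that choice. At an FDR of at most 0.05, 21 shNC peaks (65.6%, against 56.4% of all shNC peaks) and 19 shY2-2 peaks (55.9%, against 52.1%) remained. Of those, 14 of 21 and 13 of 19 met one. The shares of all peaks that met one at this filter are not given here. AXIN2 and CSNK1A1 held pairs of nearly identical peaks within each list, beside gene models that share their exons. When overlapping peaks of a list were joined, an alternative chosen after seeing the data, the members held 28 peak regions in shNC and 31 in shY2-2. More regions in shY2-2 were seen in 4 members, fewer in 4 and as many in 2. Over all genes with a peak, the mean number of peaks, not joined, was 2.59 in shNC and 2.29 in shY2-2. The share of all genes with more or fewer regions is not given here.

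**Figure D3:**
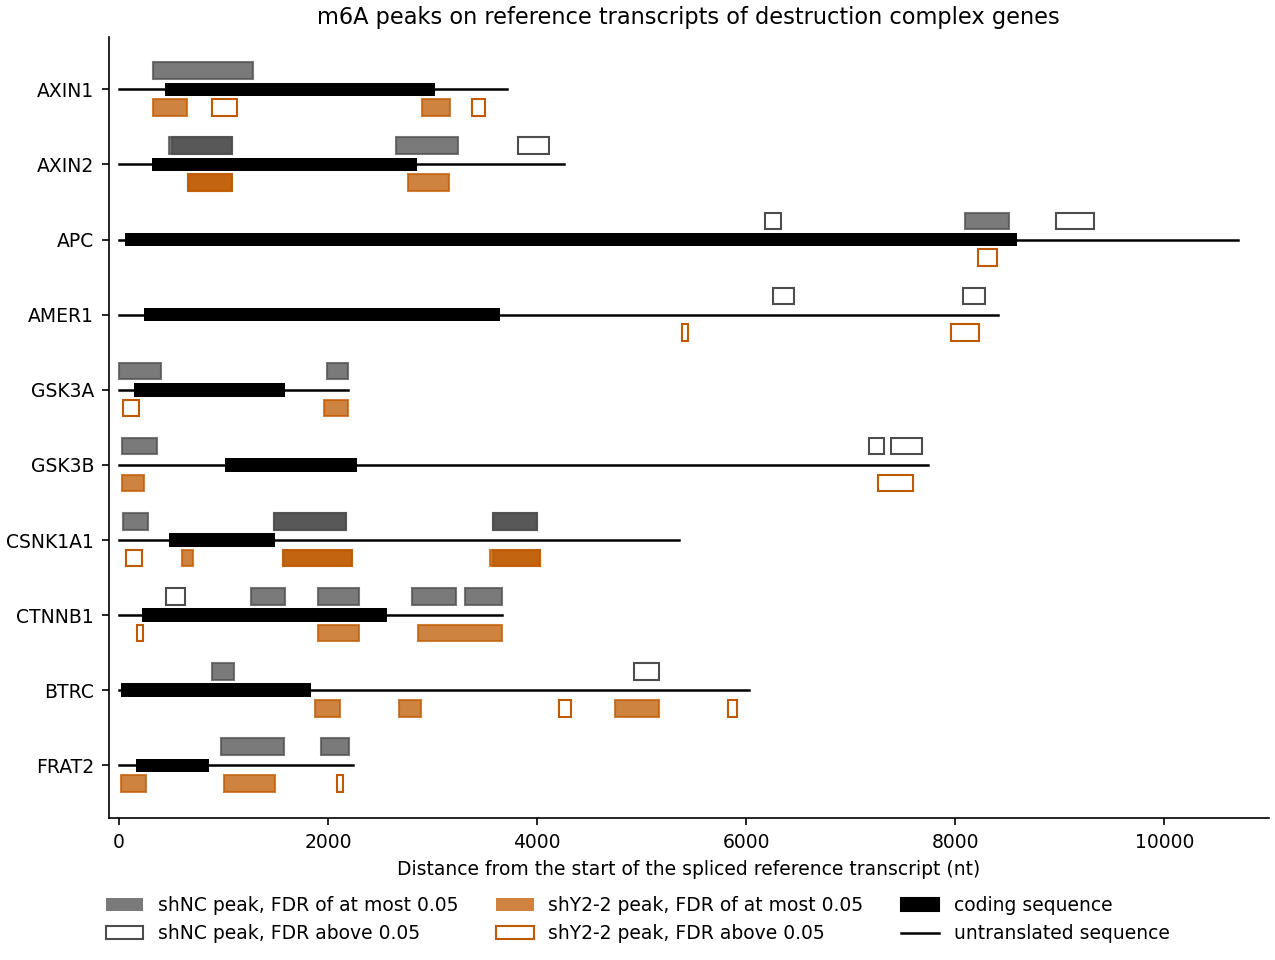
Spliced reference transcripts of the 10 members to scale (nt from the transcript start; thick line, coding sequence; thin line, untranslated sequence), with shNC peaks above and shY2-2 peaks below each line; filled boxes have an FDR of at most 0.05, darker fill marks overlapping peaks of a list, and the 3 CSNK1A1 peaks of each list outside its reference transcript are not drawn. AXIN1 has 1 shNC and 4 shY2-2 boxes, and the AMER1 boxes are all open.

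AXIN1 had a single long peak in shNC and 4 shorter ones in shY2-2. The shNC peak of 960 nt, chr16:346183-352404, runs from the 5'-UTR in exon 1 across an intron into the coding part of exon 2 and had a fold enrichment of 3.43 and an FDR of 6.76e-07. In the shY2-2 list the same end of the transcript held 2 shorter peaks. The first, chr16:346812-352404, was 331 nt long and spanned the start codon, with a fold enrichment of 2.45 and an FDR of 7.08e-06. The second, chr16:346333-346573, was 241 nt long and had a fold enrichment of 1.30 and an FDR of 0.105. Together they covered 572 nt, or 59.6%, of the shNC peak. The other 2 shY2-2 peaks lay in exon 11. One, chr16:287979-288248, covered the stop codon with a fold enrichment of 1.38 and an FDR of 0.0151, and the other, chr16:287650-287769 in the 3'-UTR, had a fold enrichment of 1.55 and an FDR of 0.158. The total length under AXIN1 peaks was nearly equal, 960 nt in shNC and 962 nt in shY2-2. At an FDR of at most 0.001, the start codon peak was the AXIN1 peak left in either list.

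AXIN2, by contrast with its paralog, had its strongest enrichment at the stop codon. The peak chr17:65529578-65533984 had a fold enrichment of 5.30 and an FDR of 5.01e-16 in shNC, and the peak chr17:65529668-65530056 within it had 5.78 and 2.00e-14 in shY2-2. Near the start of the coding sequence, in exon 2, a peak of 568 nt had a fold enrichment of 2.82 in shNC and a peak of 419 nt had 2.35 in shY2-2. A further shNC peak in the 3'-UTR, with a fold enrichment of 3.43 and an FDR of 0.140, met no peak of the other list. Both AXIN paralogs thus had peaks in the coding part of exon 2, while at the stop codon the fold enrichment was above 5 in AXIN2 and 1.38 in the AXIN1 peak of shY2-2.

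APC and AMER1 were the scaffolds with the lowest FPKM, and 1 of their peaks, in APC in shNC, had an FDR of at most 0.05. APC had 3 peaks in shNC and 1 in shY2-2, and the pair that met lay at the end of its long coding sequence, with a fold enrichment of 3.00 (FDR 1.74e-04) in shNC and 2.05 (FDR 0.258) in shY2-2. Neither of the other 2 shNC peaks had an FDR under 0.195. AMER1 had 2 peaks in each list, all in its 3'-UTR of 4762 nt, and none had an FDR under 0.167. The AMER1 pair near the transcript end had a fold enrichment of 2.90 in shNC and 9.25 in shY2-2.

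The GSK3 kinases carried peaks at both ends of their transcripts. For GSK3A, the 5' peak (chr19:42242207-42242625, over the start codon) had a fold enrichment of 9.16 and an FDR of 1.26e-11 in shNC. The shY2-2 peak inside it was 150 nt long, against 419 nt, with a fold enrichment of 2.24 and an FDR of 0.0891. The 3' peak of GSK3A went the other way, with a fold enrichment of 2.18 (FDR 6.17e-06) in shNC and 3.08 (FDR 3.24e-09) in shY2-2. The higher fold enrichment of GSK3A thus lay at the 5' end in shNC and at the 3' end in shY2-2. In shY2-2 the 2 values were 2.24 and 3.08, and the 5' peak had an FDR above 0.05. The FPKM of GSK3A was nearly equal in both libraries. The GSK3B peak in the 5'-UTR had a fold enrichment of 3.86 (FDR 6.31e-08) in shNC and 2.71 (FDR 5.01e-04) in shY2-2. Its peaks near the end of the 3'-UTR had fold enrichments of 3.56 and 7.63 in shNC and 6.36 in shY2-2, and no FDR of the 3 was under 0.0724.

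CSNK1A1 had the most peaks of any member, 8 in shNC and 9 in shY2-2, which joined into 5 and 7 regions. Its 3'-UTR held a region from the stop codon, with fold enrichments of 2.06 and 2.53 in shNC and 1.68 in both shY2-2 peaks. A second region lay further along the 3'-UTR, with fold enrichments of 1.54 or less in shNC and 2.10 and 2.95 in shY2-2. A peak in the 5'-UTR had a fold enrichment of 1.43 (FDR 1.82e-04) in shNC and 1.23 (FDR 0.0562) in shY2-2. A coding peak in the shY2-2 list, chr5:149549492-149550293, with a fold enrichment of 2.09 and an FDR of 0.00275, met no shNC peak, and 134 of its 241 nt lie outside the reference transcript. In each list 3 further CSNK1A1 peaks had no base in the reference transcript, and the authors' annotation placed 4 of these 6 in exons of the overlapping lncRNA. Among these, the shNC peak chr5:149497372-149497702 had the highest fold enrichment of any shNC member peak, 9.92, with an FDR of 0.0468.

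CTNNB1 had 5 peaks in shNC and 3 in shY2-2, and its highest fold enrichment was 3.20 in shNC and 1.86 in shY2-2. The coding peak chr3:41235677-41236900 in exons 11 to 13 had a fold enrichment of 3.20 and an FDR of 6.31e-14 in shNC. It was met by a longer shY2-2 peak, chr3:41235647-41237409, with 1.86 and 6.17e-05. Of these peaks 326 of 719 nt and 865 of 1258 nt lie outside the exons of the reference transcript, in intron sequence that the authors' models count as exon. The 2 shNC peaks in the 3'-UTR, with fold enrichments of 1.98 and 1.59, corresponded to 1 shY2-2 peak with 1.71. A shNC peak over exons 7 to 9, with a fold enrichment of 1.26 and an FDR of 4.47e-04, met no peak of the other list.

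BTRC had 2 peaks in shNC and 5 in shY2-2, a gap of 3, as for AXIN1. All 5 shY2-2 peaks lay in the 3'-UTR of 4190 nt, and 3 of them had an FDR of at most 0.05. The peak chr10:101556035-101556453 had a fold enrichment of 6.36 and an FDR of 0.00145, against 2.40 and 0.209 for the shNC peak inside it. The shNC coding peak of BTRC, in exons 8 and 9, had a fold enrichment of 1.87 and an FDR of 0.0174 and met none in shY2-2. FRAT2, a gene of 1 exon, had a peak in the 3'-UTR of 598 nt in shNC and 480 nt in shY2-2, with fold enrichments of 2.45 (FDR 3.89e-05) and 1.95 (FDR 1.62e-05). A peak over the FRAT2 start codon was in the shY2-2 list, with a fold enrichment of 9.25 and an FDR of 0.0427. The peak at its 3' end had 6.87 (FDR 0.00891) in shNC and 1.81 (FDR 0.380) in shY2-2.

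To set enrichments side by side, each peak was paired with the peak of the other list that shared the most bases with it, where the choice was mutual. This comparison was chosen after the values were seen. The members gave 19 pairs of the 15784 in all, with the AXIN2 exon 2 peaks among them as 2 pairs. Fold enrichment was higher in shY2-2 in 6 member pairs and lower in 13, with a median log2 ratio of -0.26. All pairs had a median of -0.07 and quartiles of -0.36 and 0.19, so pairs lower in shY2-2 were also the commoner over all genes. AMER1 (1.67) and BTRC (1.41) were above a log2 ratio of 1, against 4.61% of all pairs, and GSK3A at the 5' end (-2.03) and FRAT2 at the 3' end (-1.92) were below -1, against 5.68%. In each of these 4 pairs at least 1 of the peaks had an FDR above 0.05. The 11 pairs with an FDR of at most 0.05 in both lists ranged from -0.78, for the CTNNB1 coding pair, to 0.50, for GSK3A at the 3' end. Of these 11, 8 were lower in shY2-2, and the share of all pairs at this filter that were lower is not given here. The AXIN1 start codon pair, at -0.49, was one of the 8 lower pairs, and 18.8% of all pairs had a lower log2 ratio. Its peaks were of unlike length, 960 nt in shNC and 331 nt in shY2-2. The 2 fold enrichments thus cover unlike stretches, as in other pairs of unequal peaks. The study reported higher m6A of AXIN1 after knockdown. The start codon pair went the other way, while the AXIN1 peaks in exon 11 were in the shY2-2 list only. Those had fold enrichments of 1.38 (FDR 0.0151) and 1.55 (FDR 0.158). The study showed m6A peaks along the whole AXIN1 transcript and also found m6A in AXIN1 mRNA by a gene-specific qPCR. The pair here covers only the start of the transcript. Fold enrichment is a ratio within a condition, and neither the reads behind a peak nor the antibody yield of the libraries is known.

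**Figure D4:**
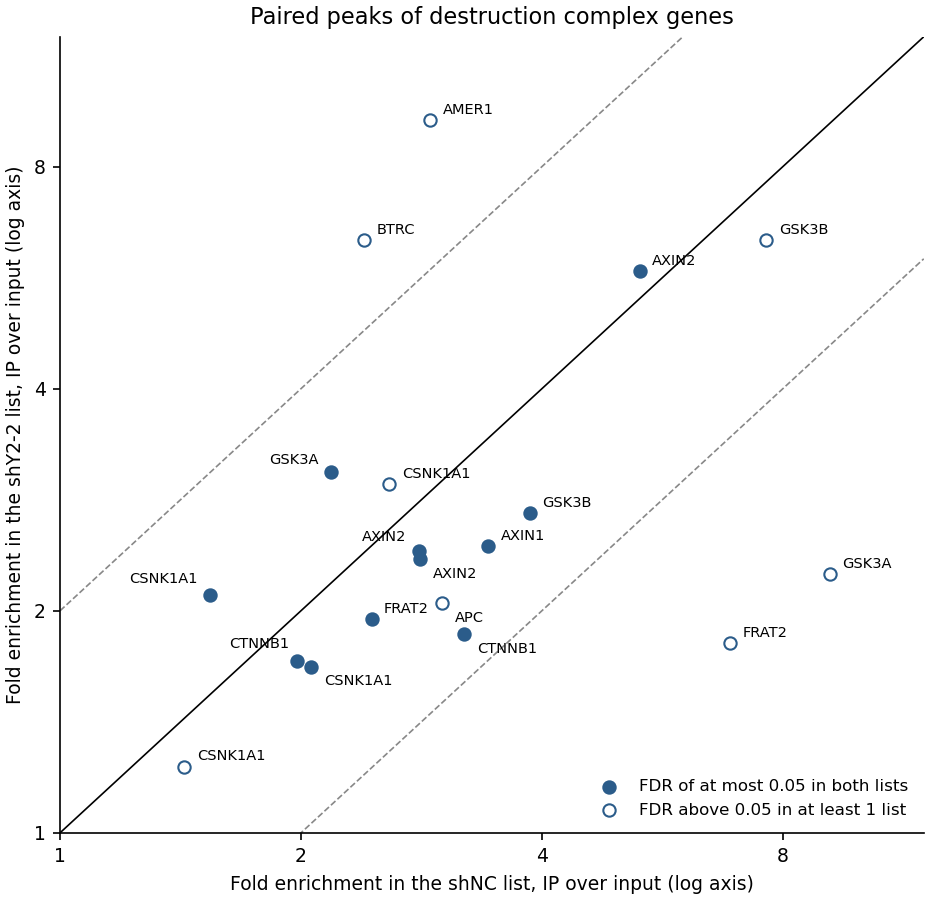
Fold enrichment (IP over input, log axes) of the 19 paired member peaks, shNC on the horizontal and shY2-2 on the vertical axis, 1 point per pair; the solid line is equality, and the dashed lines are log2 ratios of 1 and -1. Filled points, the 11 pairs with an FDR of at most 0.05 in both lists, all lie between the dashed lines, and the 4 points outside them are open.

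By the reference transcripts, member peaks overlapped the 3'-UTR in 17 of 32 cases in shNC (53.1%, against 48.2% of all peaks in protein-coding genes) and in 19 of 34 in shY2-2 (55.9%, against 50.3%). Coding sequence was overlapped by 13 (40.6%, against 53.4%) and 12 (35.3%, against 47.9%). The 5'-UTR was overlapped by 4 (12.5%, against 9.32%) and 6 (17.6%, against 9.99%), in AXIN1, GSK3A, GSK3B and CSNK1A1 in both lists and in CTNNB1 and FRAT2 in shY2-2. A window of 100 nt around the stop codon was met by 4 (12.5%, against 21.9%) and 5 (14.7%, against 21.9%). These counts are small and follow a few genes, CSNK1A1 above all. GGAC, searched on the transcript strand, was in 20 of 32 shNC peaks (62.5%, against 61.0% of all shNC peaks) and in 21 of 34 shY2-2 peaks (61.8%, against 60.6%). GGACT, which contains GGAC, was in 12 (37.5%, against 28.7%) and 13 (38.2%, against 29.2%). The AXIN1 start region held 9 GGAC in the 960 nt of the shNC peak and 3 in the 331 nt of the first shY2-2 peak. The AXIN2 stop codon peak held none in 598 nt, but 3 GACT and 6 AACT, letters that 60.9% and 61.6% of all shNC peaks contain.

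The other genes of the pathway came from a list of 58 around the complex, in 7 roles. Of these, 56 were in the expression table, without AMER2 and AMER3, and 48 were tested. BCL9, a co-activator that binds β-catenin in the nucleus, had 2.57 FPKM in shNC and 7.13 in shY2-2, a log2 ratio of 1.19, and was alone above 1. FN1 (fibronectin), with 32.8 FPKM in shNC and 8.33 in shY2-2 (log2 ratio -1.86), and JUN, an AP-1 transcription factor, with 13.3 and 5.18 (log2 ratio -1.21), were below -1. Above 0.3 were 9 genes of 48, against 20.2% of all tested genes, and below -0.3 were 15, against 22.6%, with a median log2 ratio of -0.13. The SCF ligase subunits lay between -0.21 and 0.19, and the other CK1 kinases between -0.15 and 0.53 with a median of 0.09. Phosphatase subunits ranged from -0.40 to 0.92 with a median of 0.02. No listed paralog of the scaffolds was tested, as APC2 was under an FPKM of 1 in both libraries. The receptor end ranged from -0.55 to 0.55 with a median of -0.05, and the nuclear partners had a median of 0.03. Among the regulators of AXIN stability, 3 of 7 were below -0.3 (22.6% of all tested genes) and 1 was above 0.3 (20.2%), with a median of -0.25. The lowest, named after its values were seen as are the genes that follow, was USP34, a deubiquitinase of AXIN, with 8.16 FPKM in shNC and 3.98 in shY2-2 (log2 ratio -0.88).

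Of the 7 roles, the β-catenin transcription targets had the lowest median. Of 13 listed genes 9 were tested, 7 of them were below -0.3, where 22.6% of all tested genes lay, none was above 0.3, and the median was -0.73. DKK1, a secreted Wnt inhibitor, had 207 FPKM in shNC and 117 in shY2-2 (log2 ratio -0.82), CCND1 (cyclin D1) had 70.9 and 50.7 (log2 ratio -0.47), MMP7, a matrix protease, had 22.5 and 13.1 (log2 ratio -0.73), and RNF43, which removes Wnt receptors from the membrane, had 6.29 and 2.75 (log2 ratio -0.96). MYC, at 15.0 FPKM in shNC and 15.7 in shY2-2 (log2 ratio 0.06), and ZNRF3, at 6.87 and 6.31 (log2 ratio -0.11), were the other two tested targets. AXIN2, itself such a target, was at -0.12. FN1, MMP7 and CD44 (as mRNA) and JUN and MYC (as protein, reported lower after knockdown) are among the genes that the study itself measured in these cells. The list is therefore not independent evidence of a direction. Beside it stand the 5 epithelial markers, which were lower in the same library, and their part in it was not tested.

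**Figure D5:**
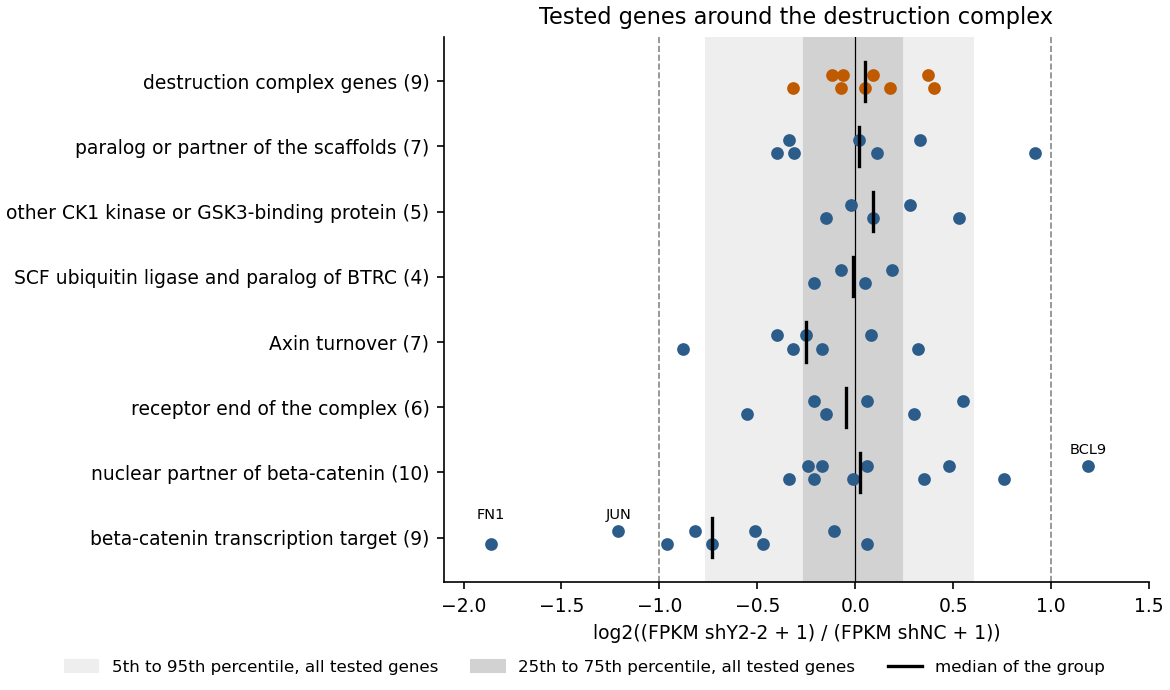
log2((FPKM shY2-2 + 1)/(FPKM shNC + 1)) of the 9 tested members and of the 48 tested pathway genes by role (number tested in brackets; 1 point per gene, spread vertically for legibility), with group medians as bars and bands between the quartiles and between the 5th and 95th percentiles of the 12268 tested genes. The members lie between -0.32 and 0.40, the targets have a median of -0.73, and BCL9, FN1 and JUN lie beyond the dashed lines at 1 and -1.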

How the data were processed

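RNA-seq and m6A-seq of A549 cells gave 4 libraries, an input and an IP library each for shNC and shY2-2, grouped by their titles. Per the labels and the methods of the study, reads were trimmed with fastp and mapped to GRCh38 with HISAT2. The authors calculated the deposited FPKM values from the input libraries with StringTie, and called peaks with exomePeak, IP over input, per condition, with ChIPseeker for annotation. The deposited peak lists hold a p-value (0.049 at most), log10 scores of the p-value and the FDR, and a fold enrichment, a linear ratio, all from the authors' caller. Tool versions and the annotation release are not given in the sources used here. FPKM and peak lists carry no read numbers, so depth is unknown and no interval from depth can be given.

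Log2 ratios used a pseudocount of 1 on FPKM and were compared over the genes that reached an FPKM of 1 in either input. No test was run, since each group has 1 library. Peaks of the lists were taken to meet where their exon blocks on 1 strand shared 1 bp or more, and were placed on the canonical transcripts of GENCODE release 44, which holds 27939 of the 28283 genes and all 10 members. Motifs were counted in spliced reference sequence. The members and gene lists were chosen with earlier results of these data known. Named were all members, YTHDF2, and the pathway genes past a log2 ratio of 1 or with the highest or lowest ratio; USP34 and the other targets described were named after their values were seen. Alternatives were another pseudocount, other filters, centring, stricter peaks, other overlap and other location rules. Protein results of the study were not analysed here. The steps were tested on simulated data. Computations used Python 3.11.15, NumPy 2.4.6, pandas 2.3.3, pysam 0.24.0 and matplotlib 3.10.9.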

Additional observations from a re-analysis of the deposited data

How the results depend on the processing

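Of 74 recomputed values under alternatives, 72 of them planned, 61 kept to the value reported within the limits set (for counts, 1.5 times), 13 moved and none changed direction. The log2 ratios of the tested members and of YTHDF2 were among the 61, under a pseudocount of 0.1 and under centring. That of YTHDF2, although counted as kept, was -1.71 in place of -1.18 with a pseudocount of 0.1. With a pseudocount of 0.1, APC was at -0.65 in place of -0.22, and 2 pathway genes in place of 1 were above a log2 ratio of 1 and 4 in place of 2 below -1. Stricter peak filters took the 23 member peaks of the shNC list that met the other list to 14 of 21 (FDR of at most 0.05), 12 of 16 (FDR of at most 0.001) and 14 of 23 (fold enrichment of at least 2). The 22 of the shY2-2 list went to 13 of 19, 11 of 13 and 12 of 22; fewer peaks are left by construction. Under the same filters 8, 7 and 9 members in place of 10 had a peak in both lists. Shares over all peaks and all genes under these filters are not given here. Placing a peak by its midpoint gave 2 in place of 4 shNC peaks in the 5'-UTR and 7 in place of 12 shY2-2 peaks in coding sequence. The authors' annotation gave 7 in place of 13 (shNC) and 5 in place of 12 (shY2-2) in exons outside UTRs. It names 1 location per peak, and the cause was not tested further. No paired analysis was possible because each group has 1 library. The unknown depth limits what can be said of APC, AMER1 and the peaks with an FDR above 0.05.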
